A study of Mus musculus with 4 samples.

Results

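The genes described here are 10 amino acid transporters whose transcription is known to respond to amino acid shortage or oxidative stress in many cell types. They are Slc7a11, Slc7a5, Slc7a1, Slc7a3, Slc3a2, Slc38a1, Slc38a2, Slc1a4, Slc1a5 and Slc6a9. They were chosen by name, with earlier results of these data known. Every probe for a mouse transcript that carried 1 of these names in the array design was taken. This gave 15 probes of the 39429 on the array, and 10 of its 31093 gene names. IMS32 is an immortalized Schwann cell line from mouse, Schwann cells being the glia that ensheath peripheral axons, and it was kept for 1 h in DMEM with 5% FBS at 1 of 4 conditions. The medium held 5 mM glucose with 1 mM pyruvate in [Glc 5 mM/Pyr (+)] and without pyruvate in [Glc 5 mM/Pyr (−)], or 15 mM glucose with 1 mM pyruvate in [Glc 15 mM/Pyr (+)] and without pyruvate in [Glc 15 mM/Pyr (−)]. Total RNA from each condition, labelled with Cy3, went on 1 array, and the 4 arrays lay on 1 slide. No condition therefore has a replicate, no difference below was tested, and none has a check between cultures.

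The comparisons ask how taking pyruvate out of the medium for 1 h changed transcript levels at each glucose concentration, and how the higher glucose concentration changed them with and without pyruvate. Amino acid transporters of the plasma membrane set which amino acids a cell can take up or exchange. Slc7a11 (xCT) exchanges extracellular cystine for intracellular glutamate, and cystine is reduced to the cysteine from which glutathione is made. Slc7a5 (LAT1) exchanges large neutral amino acids. Both are light chains that reach the membrane bound to the same heavy chain, Slc3a2 (4F2hc, CD98). Slc7a1 (CAT1) and Slc7a3 (CAT3) carry cationic amino acids such as arginine. Slc38a1 (SNAT1) and Slc38a2 (SNAT2) take up small neutral amino acids with sodium, Slc1a4 (ASCT1) and Slc1a5 (ASCT2) exchange neutral amino acids, and Slc6a9 (GlyT1) takes up glycine. When amino acids run short or oxidants accumulate, the transcription factor Atf4 binds sites in many of these genes, and Nfe2l2 (Nrf2) acts on Slc7a11 as well.

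The array measures each gene by 1 or more probes of 60 bases, so a value belongs to the stretch of transcript that its probe covers. The first 30 bases of 7 probes are shown, 5′ to 3′, for the 3 genes with 1 probe that differed most between arrays and for the 2 genes whose probe pairs frame how far 1 transcript can be read. The probes' positions are those of the array files in the mouse build mm9. Capitals mark the 21 bases within these windows that both Slc6a9 probes share.
Slc7a11 probe A_52_P368057, chr3:50169700-50169759, minus strand: agtaatgtatcaggagctttatgtaaatgt
Slc3a2 probe A_51_P472901, chr19:8782189-8782248, minus strand: gagggcttgctgttacagttcccctttgtg
Slc7a5 probe A_55_P1973941, chr8:124405136-124405195, minus strand: gtggttataatgtcttttactattgtatta
Slc7a5 probe A_55_P2017972, chr8:124430996-124431055, minus strand: tagtcttcgccacctacttgctcaagccgg
Slc38a2 probe A_51_P458384, chr15:96518491-96518550, minus strand: aaggttccaaatgaatttcaggccaaattc
Slc6a9 probe A_55_P1973838, chr4:117541842-117541901, plus strand: gcccagtgtGTGCAGAACTAGGGTTTTAAA
Slc6a9 probe A_55_P2010788, chr4:117541851-117541910, plus strand: GTGCAGAACTAGGGTTTTAAAgtccgtagg
The Slc6a9 probes are 9 bases apart and have 51 of their 60 bases in common, so they are close to 1 measurement made in duplicate. The Slc7a5 probes begin 25860 bases apart, with A_55_P2017972 the nearer to the 5′ end of the gene, and so they cover different parts of the locus. The other members have 1 probe each, except Slc38a1 with 3 and Slc1a5 with 2.

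All 15 probes were well above background on all 4 arrays. Values are given as processed spot intensity after background correction, and differences as the difference of log2 intensity after each array was set relative to the 75th percentile of its probes, so that 1.00 is a 2-fold difference. The 75th percentile was an intensity of 1788 with and 1740 without pyruvate at 5 mM glucose, and 1597 with and 1632 without it at 15 mM. Probes printed 10 times on each array gave a median SD between spots of 0.07 to 0.08 on the log2 scale, which puts the SD of a difference between arrays at 0.10 to 0.11. This covers the error within an array and not the spread between cultures. Between 28473 and 30347 probes were well above background on an array and no spot was saturated. All 9 Schwann cell markers examined, among them Sox10 and S100b, were well above background on all 4 arrays. So were 4 of 5 fibroblast, 5 of 5 macrophage, 2 of 4 endothelial and 2 of 4 neuronal markers.

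**Figure D1:**
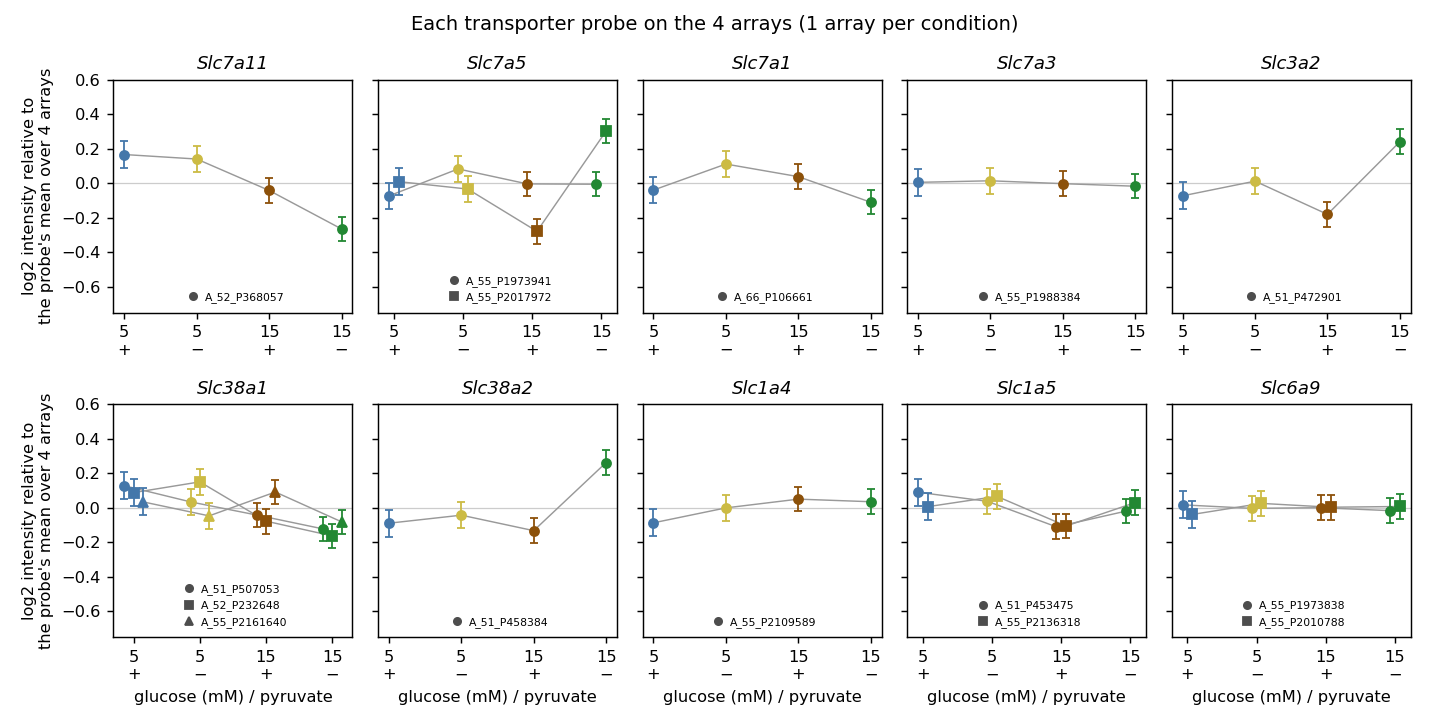
Log2 intensity of each of the 15 transporter probes on the 4 arrays, relative to the probe's own mean, by glucose concentration (mM) and pyruvate (+ or −), with the median SD between spots within that array as bars (0.07 to 0.08), a symbol for each probe of a gene and lines joining 1 probe's values. With the percentile scaling shown, though not with spike-in scaling, Slc3a2, Slc38a2 and the A_55_P2017972 probe of Slc7a5 are highest at 15 mM glucose without pyruvate and Slc7a3 is nearly flat, while Slc7a11 is lowest at 15 mM without pyruvate with either.

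With the percentile scaling the differences were small in every gene. No member reached 2-fold in any of the 4 comparisons. Over all measured genes the share past 2-fold was 1.18% for pyruvate at 5 mM glucose and 2.16% at 15 mM, and 1.0% for glucose with pyruvate and 2.45% without. No member reached 1.5-fold either, against 3.46%, 6.76%, 3.33% and 7.43% of all measured genes in the same order. With spike-in RNA as the scale in place of the percentile, 1 member, Slc7a11 (-0.59 for glucose without pyruvate), passed 1.5-fold. In that comparison and scale 8.64% of all genes were lower and 1.79% higher by as much. A count of 0 or 1 among 10 genes at such shares is no result about these genes. The array measures RNA per amount of labelled RNA, and a smaller share of cells that express a gene cannot be told apart from less of its RNA per cell.

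The choice of scale moved whole arrays against each other, which bears on every order of arrays given below. With spike-in scaling the median of all genes was -0.21 for pyruvate at 5 mM and 0.00 at 15 mM, and it was -0.37 with and -0.15 without pyruvate for glucose. The pyruvate comparison at 15 mM was thus the one that scaling hardly touched. There the difference stayed above 0 for Slc3a2 (0.39 to 0.42) and below 0 for Slc7a11 (-0.26 to -0.21) under all scalings tried. Unless stated otherwise, values and orders of arrays are those with the percentile scaling. Shares of all genes above 0 are given with that scaling only. They were not computed with the others, so counts above 0 with spike-in scaling or normexp are no result about a list.

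The heavy chain Slc3a2 and the amino acid carrier Slc38a2 were the members with the highest values for pyruvate withdrawal at 15 mM glucose. The Slc3a2 probe had intensities of 25077 with and 25883 without pyruvate at 5 mM glucose, and 20799 with and 28446 without it at 15 mM. With the percentile scaling the array at 15 mM without pyruvate was the highest of the 4, and with spike-in scaling it was -0.07 from the array at 5 mM with pyruvate and so no longer the highest. The array at 15 mM with pyruvate was the lowest with either. The log2 difference of Pyr (−) against Pyr (+) was 0.42 at 15 mM and 0.08 at 5 mM, so the first was well beyond the spot SD and the second was below it. Part of the gap at 15 mM lay on the side with pyruvate, where Slc3a2 differed by -0.11 from 5 mM glucose with pyruvate (-0.45 with spike-in scaling). Without pyruvate the difference of 15 mM from 5 mM was 0.23, and 0.04 with spike-in scaling, which is below the spot SD.

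Slc38a2 was likewise highest at 15 mM without pyruvate with the percentile scaling, though not with spike-in scaling (-0.03 from 5 mM with pyruvate), and lowest at 15 mM with pyruvate. Its intensities were 11253 with and 11310 without pyruvate at 5 mM glucose, and 9757 with and 13106 without it at 15 mM. The difference for pyruvate was 0.40 at 15 mM and 0.05 at 5 mM, and the difference for glucose was 0.31 without pyruvate and -0.04 with it. With spike-in scaling these glucose differences were 0.12 and -0.39. The pyruvate difference at 15 mM exceeded that at 5 mM by 0.34 for Slc3a2 and by 0.35 for Slc38a2, and neither excess was tested.

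The light chains did not follow their shared heavy chain as a group. Slc7a11 had intensities of 556 with and 531 without pyruvate at 5 mM glucose, and 430 with and 376 without it at 15 mM. Both arrays at 15 mM glucose lay below both arrays at 5 mM, and the lowest was the one without pyruvate. The difference for glucose was -0.21 with pyruvate and -0.41 without, the latter being the lowest value of any member in any comparison with this scaling. With spike-in scaling they were -0.55 and -0.59. The difference for pyruvate was -0.03 at 5 mM and -0.22 at 15 mM. For pyruvate at 15 mM, the cystine transporter and the heavy chain that carries it thus differed in opposite directions under all scalings tried.

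For Slc7a5 the probes disagreed. The probe nearer the 5′ end, A_55_P2017972, read 351 with and 331 without pyruvate at 5 mM glucose, and 256 with and 392 without it at 15 mM. It was highest at 15 mM without pyruvate, though with spike-in scaling it was -0.09 from 5 mM with pyruvate there, and lowest at 15 mM with pyruvate. Its pyruvate difference was 0.58 at 15 mM and -0.04 at 5 mM. Its range over the arrays, 0.58, was the widest of the 15 probes. The other probe, A_55_P1973941, read 1426, 1547, 1337 and 1364 on the arrays in the same order, and its pyruvate difference was 0.00 at 15 mM and 0.16 at 5 mM. The average of both probes, 0.29 at 15 mM, therefore rests on 1 of them, and the gap of 0.58 between the probes is several times the spot SD. What sets the probes apart was not tested.

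Of the cationic amino acid transporters, Slc7a1 differed in opposite directions at the glucose concentrations. Its intensities were 19771 with and 21361 without pyruvate at 5 mM glucose, and 18645 with and 17184 without it at 15 mM. After scaling, the array without pyruvate was the highest of the 4 at 5 mM and the lowest at 15 mM. The differences of 0.15 and -0.15 were only somewhat above the spot SD, and the first became -0.04 when spike-in RNA set the scale. Slc7a3 was the flattest member, with intensities of 866, 848, 769 and 778 in the same order. With the percentile scaling its 4 values spanned 0.03, which is below the spot SD of 1 array. With spike-in scaling its difference for glucose with pyruvate was -0.35.

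Slc38a1, the relative of Slc38a2, did not share its pattern. Its probe A_51_P507053 read 6741 with and 6148 without pyruvate at 5 mM glucose, and 5353 with and 5172 without it at 15 mM. In the order of arrays just given, A_52_P232648 read 129, 131, 103 and 98.9, and A_55_P2161640 read 916, 843, 852 and 772. After scaling, all 3 Slc38a1 probes were lowest at 15 mM without pyruvate, with pyruvate differences of -0.08 to -0.17 at 15 mM. At 5 mM the probes ranged from -0.09 to 0.06. The average over the probes was -0.11 at 15 mM and -0.04 at 5 mM.

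The exchangers of neutral amino acids and the glycine transporter had pyruvate differences close to the spot SD or below it. Slc1a4 had intensities of 3272 with and 3381 without pyruvate at 5 mM glucose, and 3216 with and 3251 without it at 15 mM, with pyruvate differences of 0.09 at 5 mM and -0.02 at 15 mM. Slc1a5 gave 3658, 3433, 2844 and 3094 with A_51_P453475 and 646, 656, 534 and 600 with A_55_P2136318 in the same order. Both Slc1a5 probes were lowest at 15 mM with pyruvate, and their average pyruvate difference was 0.11 at 15 mM and 0.00 at 5 mM. Slc6a9 gave 11854, 11374, 10471 and 10569 with A_55_P1973838 and 9197, 9357, 8460 and 8667 with A_55_P2010788. The Slc6a9 probes, which share most of their bases, differed from each other by 0.08 in the pyruvate difference at 5 mM and by 0.02 at 15 mM. All their differences between arrays were within the spot SD with the percentile scaling, while with spike-in scaling the gene's difference for glucose with pyruvate was -0.33.

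Across the 10 genes, with probes averaged, the pyruvate difference at 5 mM ran from -0.04 (Slc38a1) to 0.15 (Slc7a1). With this scaling it was above 0 in 8 genes (0 with spike-in scaling), where 43.9% of all measured genes were above 0, and its median was 0.03 against -0.02 for all measured genes. Relative to the median of all genes the members' median was 0.05 with either of these scalings. At 15 mM the difference ran from -0.22 (Slc7a11) to 0.42 (Slc3a2). It was above 0 in 4 genes, against 56.9% of all genes, and its median was -0.01 against 0.03. Relative to the median of all genes this was -0.04 with percentile or spike-in scaling but 0.03 with normexp background correction, so the side on which the members' median lies at 15 mM is not settled. The members thus spread more widely at 15 mM, in both directions. Their median was lower at 15 mM than at 5 mM with the percentile scaling. With spike-in scaling it was higher, at -0.16 for 5 mM and -0.04 for 15 mM, so which way it moved is not settled. All measured genes spread more widely at 15 mM as well, as their share past 2-fold shows.

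**Figure D2:**
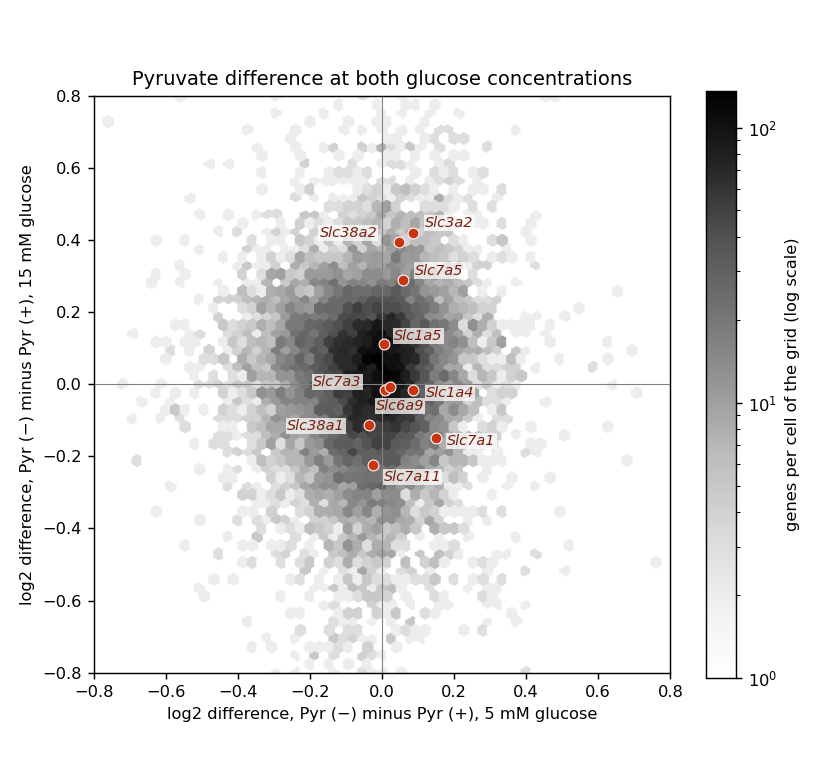
Log2 difference of Pyr (−) minus Pyr (+) at 5 mM glucose (horizontal axis) and 15 mM glucose (vertical axis) for the 10 transporters, probes averaged (red points), over all genes measured in both comparisons (grey, number of genes per cell of the grid), with no array shared by the axes. The transporters lie between -0.04 and 0.15 at 5 mM and between -0.22 and 0.42 at 15 mM, with Slc3a2 and Slc38a2 at the top.

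The glucose differences use the same 4 arrays as the pyruvate differences and add no independent measurement. With pyruvate, 15 mM against 5 mM gave values from -0.21 (Slc7a11) to 0.14 (Slc1a4), with 3 genes above 0 (0 with spike-in scaling) against 44.4% of all genes. Without pyruvate, the values ran from -0.41 (Slc7a11) to 0.31 (Slc38a2), with 4 genes above 0 (2 with spike-in scaling) against 56.2% of all genes. Seen by array, [Glc 15 mM/Pyr (−)] was above the other arrays for 3 of the 15 probes, those of Slc3a2 and Slc38a2 and A_55_P2017972 of Slc7a5. It was below them for 7, namely the probes of Slc7a11, Slc7a1 and Slc7a3, all 3 of Slc38a1 and A_55_P1973838 of Slc6a9, and within their range for 5. With spike-in scaling it was above the other arrays for 0 probes and below them for 10. With the percentile scaling, only Slc7a11 (-0.22) of the 7 lay below the nearest array by more than the spot SD. The share of all probes that were highest or lowest on this array was not computed, so these counts are no result about these genes.

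A difference of 0.4 weighs more on a bright probe than on a dim one, since bright probes scatter less. Probes that exceeded background on each array were divided into 3 equal groups by mean signal, and 8 member probes fell in the brightest, 6 in the middle and 1 in the dimmest group. For pyruvate at 15 mM, the central 95% of the 9197 brightest probes lay between -0.34 and 0.29, and Slc3a2 (0.42) and Slc38a2 (0.40) were above it. The central 95% of the 9196 middle probes lay between -0.70 and 0.48, with A_55_P2017972 of Slc7a5 (0.58) above it and Slc7a11 (-0.22) within. At 5 mM all 15 probes were within the central 95% of their group. For glucose with pyruvate, A_51_P453475 of Slc1a5 (-0.20) was just below that of the brightest group, and for glucose without pyruvate all 15 were within. A threshold of 1.25-fold was added after the values were seen. For pyruvate at 15 mM it was passed upward by Slc3a2 and Slc38a2, where 8.85% of all genes were higher and 9.01% lower by as much. For glucose without pyruvate it was passed downward by Slc7a11, where 8.52% of all genes were higher and 11.3% lower. No member passed it for pyruvate at 5 mM (4.14% of all genes higher and 6.27% lower) or for glucose with pyruvate (3.08% higher and 9.24% lower). With spike-in scaling 8 members were lower by as much for glucose with pyruvate, where 62.1% of all genes were. For glucose without pyruvate 3 were lower (24.8% of all genes). The count for pyruvate was 0 at 5 mM (1.96% of all genes higher and 22.7% lower). At 15 mM it was 2, again Slc3a2 and Slc38a2 (7.53% higher and 10.3% lower).

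**Figure D3:**
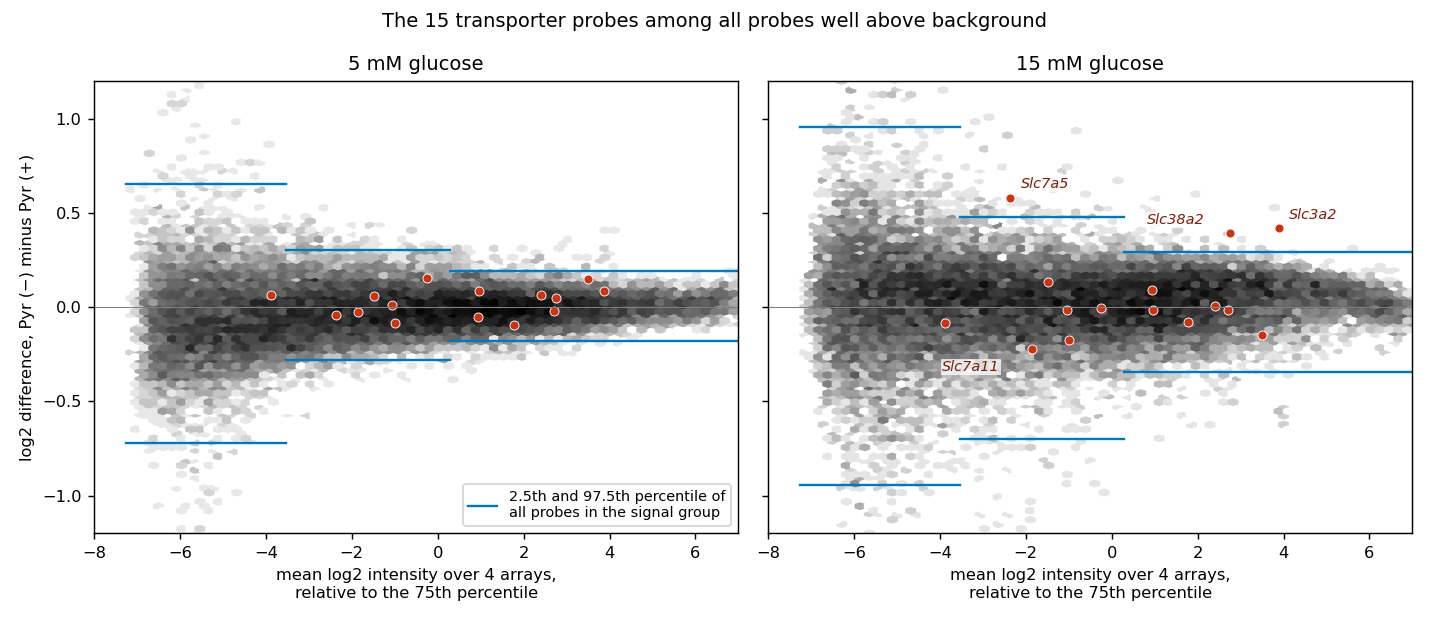
Log2 difference of Pyr (−) minus Pyr (+) against mean log2 intensity over the 4 arrays (relative to the 75th percentile) for the 15 transporter probes (red) and all probes well above background on all arrays (grey, darker where denser), at 5 mM glucose (left) and 15 mM glucose (right). Blue lines bound the central 95% of all probes in each of 3 signal groups; at 15 mM Slc3a2, Slc38a2 and 1 Slc7a5 probe are above the upper line and no transporter is below the lower one.

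The genes whose pattern over the 4 arrays was nearest to the widest-ranging member probe, A_55_P2017972 of Slc7a5, were sought among 21716 genes by Euclidean distance between centred log2 values. They were Nfib (distance 0.03), Tnfsf15 (0.04), 4930426I24Rik (0.04), Gm38938 (0.04) and Gm9888 (0.05). Slc3a2 ranked 183 and Slc38a2 ranked 352 in this order, at distances of 0.15 and 0.18, while Slc7a11 ranked 18803. With 4 arrays, many genes come close by such a measure.

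A list of 21 genes, most of them of the Atf4 and Nfe2l2 pathways, was set beside the transporters. It holds regulators of transcription and also genes that Atf4 itself induces, such as Ddit3, Atf3 and Ppp1r15a. The list was chosen with earlier results of these data known, so its counts are no test of it. Of the 21 genes, 15 were above 0 for pyruvate at 5 mM (median 0.14) and 16 at 15 mM (median 0.13), where 43.9% and 56.9% of all genes were. With spike-in scaling 8 were above 0 at 5 mM, where the median of all genes was -0.21, and 15 at 15 mM. At 15 mM, 3 of the 21 were past 2-fold, all higher without pyruvate, against 2.16% of all genes in either direction. They were Ddit3 (1.08), Ppp1r15a (1.08) and Atf3 (1.00), the last at the threshold itself. With each other scaling tried, normexp and the deposited ratios among them, 2 were past it. Atf4, averaged over its 2 probes, had intensities of 39673 with and 56207 without pyruvate at 5 mM glucose, and 38416 with and 73932 without it at 15 mM. Its pyruvate difference was 0.51 at 5 mM and 0.98 at 15 mM, so both arrays without pyruvate were above both arrays with it. At 5 mM the gene of this list with the largest value was Sesn2 (0.57), which restrains mTORC1 signalling. Nfe2l2 differed by -0.01 at 5 mM and 0.13 at 15 mM.

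Genes of glutathione synthesis and cystine use gave 7 of 12 above 0 at 5 mM (median 0.05) and 9 of 11 measured at 15 mM (median 0.08). Of all measured genes 43.9% and 56.9% were above 0, and both medians of the list were below the spot SD. With spike-in scaling the median of all genes was -0.21 at 5 mM. There 2 genes of the list were above 0, and at 15 mM 8 were. The one past 2-fold, at 15 mM where 2.16% of all genes were, was Chac1, a target of Atf4 whose enzyme degrades glutathione. Chac1 had intensities of 6651, 9115, 5728 and 12089 in the order of arrays used above, and pyruvate differences of 0.49 at 5 mM and 1.05 at 15 mM. Gclc and Gclm, the subunits of the enzyme that begins glutathione synthesis, were at 0.03 and -0.02 at 15 mM.

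Of 43 other amino acid transporters, 42 were on the array, 25 were measured for pyruvate at 5 mM and 23 at 15 mM. At 5 mM 9 were above 0, against 43.9% of all genes, and the median was -0.05. With spike-in scaling 1 was above 0, and with normexp 17 were. The median of all genes was -0.21 with the first and 0.02 with the second. At 15 mM 11 were above 0, against 56.9% of all genes. The median was -0.01, the same to this precision as for the 10 genes described here, though it was -0.09 with normexp, against 0.00 for the 10 genes. None measured on both arrays of a comparison reached 2-fold. The largest values were -0.39 for Slc16a10, an aromatic amino acid transporter, at 5 mM and 0.81 for Slc3a1, the heavy chain of the kidney's cystine transporter, at 15 mM, where its intensities were 21.6 with pyruvate and 38.6 without. Slc7a2 was well above background on 1 array, [Glc 15 mM/Pyr (−)], where it was at least 2.98-fold higher than with pyruvate. Slc7a14 was not well above background on either array without pyruvate and was at least 2.69-fold lower there at 5 mM and at least 1.77-fold lower at 15 mM. These bounds set the measured array against the probe's own signal on the other array. Where that was below the lowest signal of any probe well above background there, this lowest signal was used instead.

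**Figure D4:**
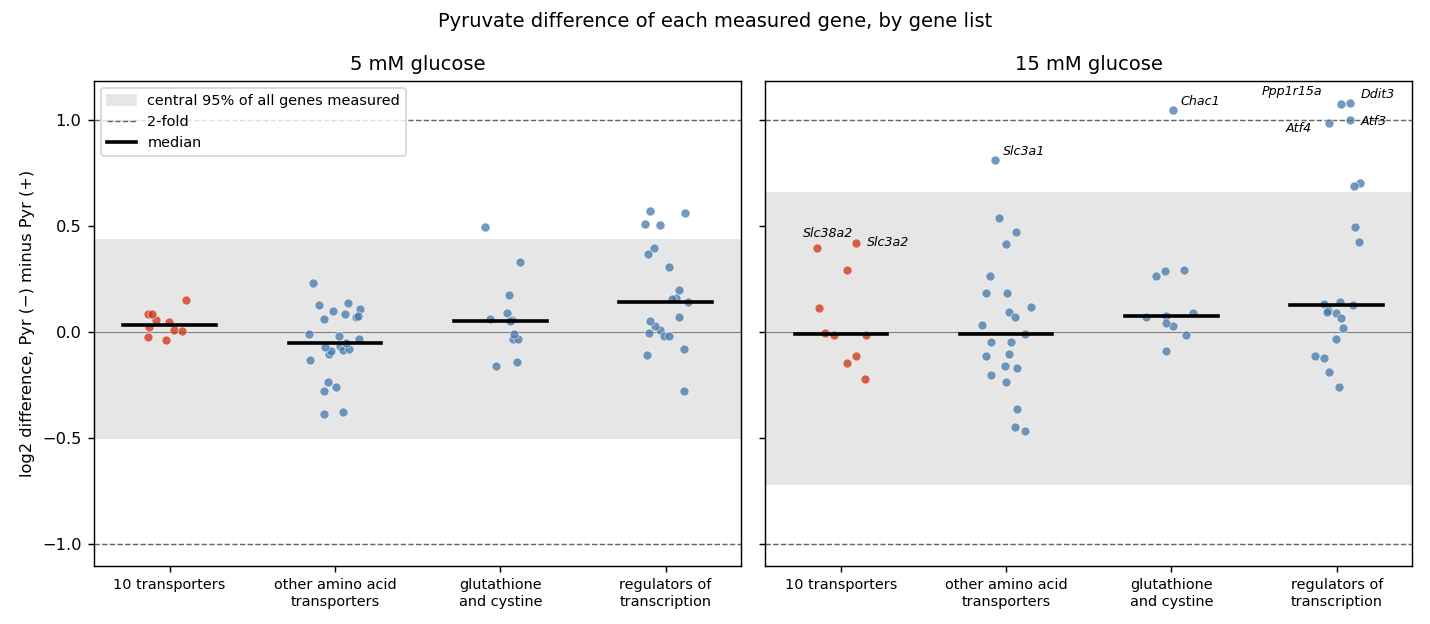
Log2 difference of Pyr (−) minus Pyr (+) for each measured gene (points, spread sideways for legibility) of the 10 transporters (red) and of 3 further lists (blue) at 5 mM and 15 mM glucose; thick bars are medians, dashed lines 2-fold, and the grey band the central 95% of all measured genes. At 15 mM Chac1, Ddit3, Ppp1r15a and Atf3 are at or above 2-fold, while the transporters end at 0.42.

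Markers of other cell types were set beside these values. The summed level of the 5 macrophage markers, relative to the 75th percentile, was 1.19, 1.18 and 1.1 on the first 3 arrays and 1.58 on [Glc 15 mM/Pyr (−)], and 1 marker, Cd68 (0.88 at 15 mM), made up most of the higher sum while Ptprc (-0.27) and Aif1 (-0.22) were lower. The sum of the Schwann cell markers was 32.1 with and 30.5 without pyruvate at 5 mM glucose, and 31.3 with and 29.2 without it at 15 mM. That of the neuronal markers was 5.42 and 5.03 at 5 mM, and 4.01 and 3.62 at 15 mM. Both were thus lowest on [Glc 15 mM/Pyr (−)], although the neuronal marker Rbfox3 was at least 3.99-fold higher there than with pyruvate. This bound rests on dim signal, as the mean intensity of the 3 Rbfox3 probes at 15 mM was 6.68 with pyruvate and 17.1 without. The sums ran from 6.44 to 7.46 for fibroblasts and 1.38 to 1.66 for endothelial cells. Cdh5 of the endothelial and Syt1 of the neuronal markers were well above background on no array. The part of any such cells in the transporter values was not tested.

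Promoters were available for 6 of the 10 genes, from RefSeq with build GRCm38.p6, each running from 250 bases before to 50 after a start site. They are shown for the cystine transporter that was lowest, for the genes that were highest at 15 mM without pyruvate, and for Slc1a4, the other member with a match. Capitals mark TGATGNAA, the letters of the composite C/EBP-ATF site that Atf4 and C/EBP proteins bind, searched on both strands.
Slc7a11 promoter, chr3:50443564-50443863, minus strand: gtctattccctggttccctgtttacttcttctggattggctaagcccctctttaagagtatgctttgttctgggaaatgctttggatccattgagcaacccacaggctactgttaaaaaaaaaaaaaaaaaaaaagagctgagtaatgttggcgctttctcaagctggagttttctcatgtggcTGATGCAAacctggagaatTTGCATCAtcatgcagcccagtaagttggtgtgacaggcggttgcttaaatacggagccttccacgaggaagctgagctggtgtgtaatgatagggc
Slc1a4 promoter, chr11:20332664-20332963, minus strand: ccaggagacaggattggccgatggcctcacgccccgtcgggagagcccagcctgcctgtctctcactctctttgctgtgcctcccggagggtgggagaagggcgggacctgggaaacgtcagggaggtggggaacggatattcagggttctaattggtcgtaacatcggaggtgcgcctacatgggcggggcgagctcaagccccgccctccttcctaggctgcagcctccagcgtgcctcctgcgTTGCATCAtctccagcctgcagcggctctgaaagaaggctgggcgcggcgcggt
Slc3a2 promoter, chr19:8713848-8714147, minus strand: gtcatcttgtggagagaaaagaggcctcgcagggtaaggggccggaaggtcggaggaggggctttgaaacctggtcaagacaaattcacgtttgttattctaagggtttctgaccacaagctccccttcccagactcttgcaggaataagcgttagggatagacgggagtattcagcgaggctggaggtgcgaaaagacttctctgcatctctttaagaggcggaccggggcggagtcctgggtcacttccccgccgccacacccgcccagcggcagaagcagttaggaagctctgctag
Slc38a2 promoter, chr15:96699679-96699978, minus strand: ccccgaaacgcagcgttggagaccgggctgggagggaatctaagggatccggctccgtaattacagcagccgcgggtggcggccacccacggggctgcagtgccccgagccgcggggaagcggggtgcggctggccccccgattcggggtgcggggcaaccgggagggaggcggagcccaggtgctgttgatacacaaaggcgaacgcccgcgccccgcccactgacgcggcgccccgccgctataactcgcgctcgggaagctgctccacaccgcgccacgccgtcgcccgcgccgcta
The 6 genes had 9 promoters, as Slc7a1 and Slc6a9 have several start sites. TGATGNAA was found in 2 of the 9, in Slc7a11 with 2 matches and in Slc1a4 with 1, and in 3.97% of all 32851 promoters. The pyruvate difference at 15 mM was -0.22 for Slc7a11 and -0.02 for Slc1a4. TGATGNAA was not present in the windows of Slc3a2 and Slc38a2. Whether Atf4 acts on any of these genes here was not tested. TGACNNNGC, the core letters of the antioxidant response element to which Nfe2l2 binds, was found in 4 of the 9 promoters (of Slc7a1, Slc38a2 and Slc6a9) and in 12.4% of all promoters. TGACGTCA (1.79% of all promoters) and CACGTG (7.15%) were in none of the members' windows. None of these motifs contains another, though matches can overlap, a match is not a bound site, and sites outside the windows were not searched.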

How the data were processed

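The authors hybridized Cy3-labelled RNA of 4 conditions to 1 one-colour Agilent array each and deposited the scanner output of Agilent Feature Extraction 11.5.1.1 (per the labels), in which a spot's processed intensity is corrected for background and not scaled between arrays. A second deposited table holds a ratio of that intensity to the array's 75th percentile in the scanner header, and all 44397 features of each array matched it within a relative 1e-06. The study names GeneSpring GX without settings.

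Control spots and the 166 to 183 outlier spots per array were dropped before the spots of a probe were averaged. Log2 intensity was taken relative to each array's 75th percentile over probes for mouse transcripts. A probe entered a difference when well above background on both arrays, and probes of 1 gene were averaged on the log2 scale. A probe well above background on 1 side gave a bound. Pyr (−) was compared with Pyr (+) at either glucose concentration, and 15 mM with 5 mM glucose in either pyruvate state, with a threshold of 2-fold. With 1 array per condition no test and no additive fit was made. The number of arrays limits the precision. The calculation was tested on simulated data.

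The members and gene lists were chosen with earlier results of these data known. Named were all members with every probe, of each other list the genes past 2-fold and the one with the largest pyruvate difference at each glucose concentration, Atf4, Nfe2l2 and Chac1, and the 5 genes nearest in pattern to the widest-ranging member probe. Gclc, Gclm and the markers named were added after their values were seen. A further Schwann cell marker is not reported here. Gene names are those of the array, of which 22593 of 31093 matched RefSeq. Python 3.11.15, pandas 2.3.3, numpy 2.4.6, R 4.3.3 and limma 3.58.1 were used. Alternatives were a percentile limited to probes that exceeded background on each array, quantile and cyclic loess normalization, 8 of 10 spike-in probes as scale, normexp with offset 50, the deposited ratio table, stricter and no filters on dim probes, the brightest probe per gene, a threshold of 1.5-fold and, chosen after seeing the data, 1.25-fold and spike-in scaling with either.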

Additional observations from a re-analysis of the deposited data

Results flagged for a closer look

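Slc7a1, the cationic amino acid transporter, differed in opposite directions for pyruvate withdrawal at the glucose concentrations, by 0.15 on the log2 scale at 5 mM and by -0.15 at 15 mM, each beyond the SD expected from spots within arrays. The difference between these values was not tested, since each rests on 1 array per condition. With spike-in scaling the value at 5 mM was -0.04, and the directions were then the same.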

How the results depend on the processing

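The 4 comparisons were recomputed under 13 alternatives, which gave 928 values. Of these, 836 moved by less than the spot error (counts: by less than 1.5 times) and 92 moved. In 0 cases did a value past the threshold change direction, as no member passed it. The 836 do not measure robustness. The filters on dim probes could move no value, as all 15 probes were well above background on all 4 arrays. The deposited ratios and the limited percentile only shift whole arrays, and a gene with 1 probe entered both as gene and as probe. Spike-in scaling alone accounted for 78 of the 92. With it the members' median was -0.16 for pyruvate at 5 mM, -0.41 for 15 against 5 mM glucose with pyruvate and -0.21 without. At the 1.25-fold threshold 2 members were counted for pyruvate at 15 mM and 1 for glucose without pyruvate, against 0 at 2-fold. Of all genes 8.85% were higher by as much for pyruvate at 15 mM, and 11.3% lower for glucose without pyruvate. With spike-in scaling as well, a combination chosen after seeing the data, 1 member passed 1.5-fold for glucose without pyruvate. There 8.64% of all genes were lower by as much. At 1.25-fold 2 passed upward for pyruvate at 15 mM (7.53% of all genes higher). For glucose 8 passed downward with pyruvate (62.1% of all genes lower) and 3 without (24.8% lower). Such counts among so few genes are no result about them. With the brightest probe in place of the average, the pyruvate difference of Slc7a5 at 15 mM was 0.00, and with normexp that of its probe A_55_P2017972 was 0.42. No paired analysis was possible because each condition has 1 array. Differences under about 0.1 are within the error of single spots, and the spread between cultures is unknown.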
